A study of Mus musculus with 9 samples.

Results

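The Eif genes encode the factors that start protein synthesis, the enzymes that regulate them, and a few relatives named with them. Members were the genes whose symbol on the array starts with Eif followed by a digit from 1 to 6, leaving out Eif2s3x and Eif2s3y, each read through its single-gene probe set with the highest mean. The array named 45 of them among 18193 genes, and 44 of the 45 were among the 10172 genes tested. Eif4a3, a helicase of the exon junction complex, was not tested, because its probe set lay between 2.24 and 2.31 on the log2 scale in all 9 lymphomas, under the limit of 4 that a tested gene had to exceed in at least 4 arrays. Eif1, Eif2s1, Eif3g, the Eif3j genes, Eif4g1 and Eif4ebp3 were not analysed here.

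Tumours of 2 genotypes were measured. The first group held 5 lymphomas of mice with both the Eμ-Myc and the Eμ-TTP-1 transgene, and the second held 4 lymphomas of mice with Eμ-Myc alone, all on a background of 94% C57BL/6. Eμ, the enhancer of the immunoglobulin heavy chain locus, drives both transgenes in B cells. All 9 tumours therefore carried Eμ-Myc, and there was no normal tissue among them. TTP, tristetraprolin, is the product of Zfp36 and promotes the decay of mRNAs with AU-rich elements. RNA of each tumour went to 1 Affymetrix MOE430 2.0 array, and the values are GCRMA intensities, given below as log2. The labels give no age and call the samples biological replicates without naming the animals. A p-value here sets the genotype difference against the spread between these tumours, taken as independent.

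Translation of most mRNAs begins when a ternary complex of eIF2, GTP and the initiator tRNA joins the small ribosomal subunit with eIF1, eIF1A, eIF3 and eIF5. The cap-binding complex of eIF4E, the scaffold eIF4G and the helicase eIF4A then brings this subunit to the mRNA, eIF5 triggers GTP hydrolysis at the start codon, and eIF5B joins the large subunit. The main points of control are kinases that phosphorylate the alpha subunit of eIF2 and so block its recycling by eIF2B, and eIF4E-binding proteins that hold eIF4E away from eIF4G until mTORC1 phosphorylates them. MYC is known to raise the transcription of genes for ribosome synthesis and translation, Eif4e among them, and CACGTG, the canonical E-box, is a sequence that MYC binds with its partner MAX.

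CACGTG was looked for in the RefSeq promoter windows of assembly GRCm38.p6, each running from 250 bases before to 50 bases after a gene's start. It reads the same on both strands. Of the 36 members with a window, 9 held it in at least 1 window (25.0%), namely Eif1b, Eif3a, Eif3f, Eif3k, Eif4a1, Eif4e, Eif4h, Eif5a and Eif5a2. Over all 27025 genes with a window the share was 2187 genes (8.1%). No share was taken over the tested genes or over genes of like level, so these shares compare unlike sets. A match describes these letters only, and binding was not measured. The stretches of 250 bases before the start are printed for 3 of the 9: Eif4e and Eif4a1, subunits of the cap-binding complex, and Eif5a2, the gene among the 9 with the most uneven level across the tumours. They run 5′ to 3′ along the gene's strand, with CACGTG in capitals.
Eif4e, chr3:138527018-138527267, plus strand: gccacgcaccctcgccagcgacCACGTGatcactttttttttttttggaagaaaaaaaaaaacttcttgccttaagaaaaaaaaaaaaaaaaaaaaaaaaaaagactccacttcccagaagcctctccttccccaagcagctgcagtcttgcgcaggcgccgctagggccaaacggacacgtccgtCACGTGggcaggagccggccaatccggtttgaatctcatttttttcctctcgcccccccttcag
Eif4a1, chr11:69672424-69672673, minus strand: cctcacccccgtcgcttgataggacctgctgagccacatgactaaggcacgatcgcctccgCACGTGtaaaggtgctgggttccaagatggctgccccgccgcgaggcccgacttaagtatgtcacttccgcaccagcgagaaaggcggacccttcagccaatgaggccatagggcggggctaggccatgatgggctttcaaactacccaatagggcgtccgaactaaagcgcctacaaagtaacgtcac
Eif5a2, chr3:28781027-28781276, plus strand: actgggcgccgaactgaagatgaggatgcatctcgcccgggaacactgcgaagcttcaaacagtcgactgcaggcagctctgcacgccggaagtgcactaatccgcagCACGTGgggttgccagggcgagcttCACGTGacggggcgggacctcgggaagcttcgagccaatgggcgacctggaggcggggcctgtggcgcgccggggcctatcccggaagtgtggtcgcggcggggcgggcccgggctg
The first base of the motif lay 228 and 64 bases before the start in Eif4e, 189 bases before it in Eif4a1, and 142 and 117 bases before it in Eif5a2. Of the 2 windows of Eif4e, 1 held the motif.

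Array medians ran from 12.2 to 13.4 on the intensity scale, and with 5 and 4 tumours per genotype the number of arrays sets how precise a value can be. Zfp36 read 10.85, 9.98, 10.80, 10.34 and 10.79 in replicates 1 to 5 of Eμ-Myc;Eμ-TTP-1, against 10.84, 10.20, 11.00 and 10.24 in replicates 1 to 4 of Eμ-Myc. The groups overlapped, and whether these probes detect the transgene's mRNA is not known, so Zfp36 does not check the genotype labels. Of 7 pan-B markers on the array all 7 were tested, and their mean log2 value was 11.05 to 12.62 in Eμ-Myc;Eμ-TTP-1 and 11.86 to 12.44 in Eμ-Myc. T cell markers averaged 2.77 to 4.68 in Eμ-Myc;Eμ-TTP-1 and 3.61 to 5.44 in Eμ-Myc, with Cd3e at background in all 9 arrays, and the mean of 3 natural killer markers was 2.54 to 4.70 in Eμ-Myc;Eμ-TTP-1 and 3.21 to 4.65 in Eμ-Myc. Of these, Ncr1 was at background in all 9 arrays, while Klrd1, the one tested, read 6.52, 3.07, 6.58, 5.91 and 7.11 in Eμ-Myc;Eμ-TTP-1 and 4.25, 4.90, 5.04 and 8.19 in Eμ-Myc. The mean of 4 erythroid markers was 2.79 to 3.18 in Eμ-Myc;Eμ-TTP-1 and 2.63 to 2.86 in Eμ-Myc. Among them Hba-a1 and Alas2 were at background in all 9 arrays. Hba-a2, the one tested, read 4.18 to 4.51 over the 9 arrays, and Slc4a1 read 3.07 to 4.19.

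Granulocyte markers were uneven: the mean of 6 genes was 9.69 in Eμ-Myc;Eμ-TTP-1 replicate 2 and 3.82 to 5.66 in the other arrays of that genotype, against 5.06, 9.01, 9.51 and 8.17 in Eμ-Myc. Macrophage markers averaged 8.28 to 10.11 in Eμ-Myc;Eμ-TTP-1 and 9.54 to 10.80 in Eμ-Myc, and markers of stroma and endothelium averaged 8.30 to 11.16 in Eμ-Myc;Eμ-TTP-1 and 9.37 to 11.44 in Eμ-Myc. In a bulk tumour fewer cells of a type and less RNA per cell cannot be told apart.

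The question of the comparison was whether mRNA levels of the translation factors differed between lymphomas with and without the TTP transgene. No Eif gene passed the test. Differences are Eμ-Myc;Eμ-TTP-1 minus Eμ-Myc on the log2 scale, from limma fitted across all tested genes with Benjamini-Hochberg adjustment. Of the 44 members 0 had an adjusted p under 0.05, where 0 of all 10172 tested genes did (0.0%), and the lowest adjusted p of a member was 0.86 by limma. Without adjustment, 0 of the 44 had a p under 0.05, where 577 of all tested genes did (5.67%), 394 of them higher (3.87%) and 183 lower (1.8%) in Eμ-Myc;Eμ-TTP-1. No member had groups that did not overlap, where 167 of all tested genes did (1.64%).

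By direction alone, 23 members were higher and 21 lower in Eμ-Myc;Eμ-TTP-1 (52.3% higher), where 58.9% of all tested genes were higher. With each array centred on its median, 15 of the 44 were higher (34.1%), where 45.8% of all tested genes were. The median difference of the members was 0.02, and that of all tested genes was 0.05. The intervals were narrow for most members: the 95% interval lay within a 2-fold change in either direction for 40 of the 44, and within a 1.5-fold change for 30 of them. Over all tested genes this held for 6698 and 3699 of 10172. The exceptions to the first count were Eif2ak2, Eif2ak3, Eif4e3 and Eif5a2.

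**Figure D1:**
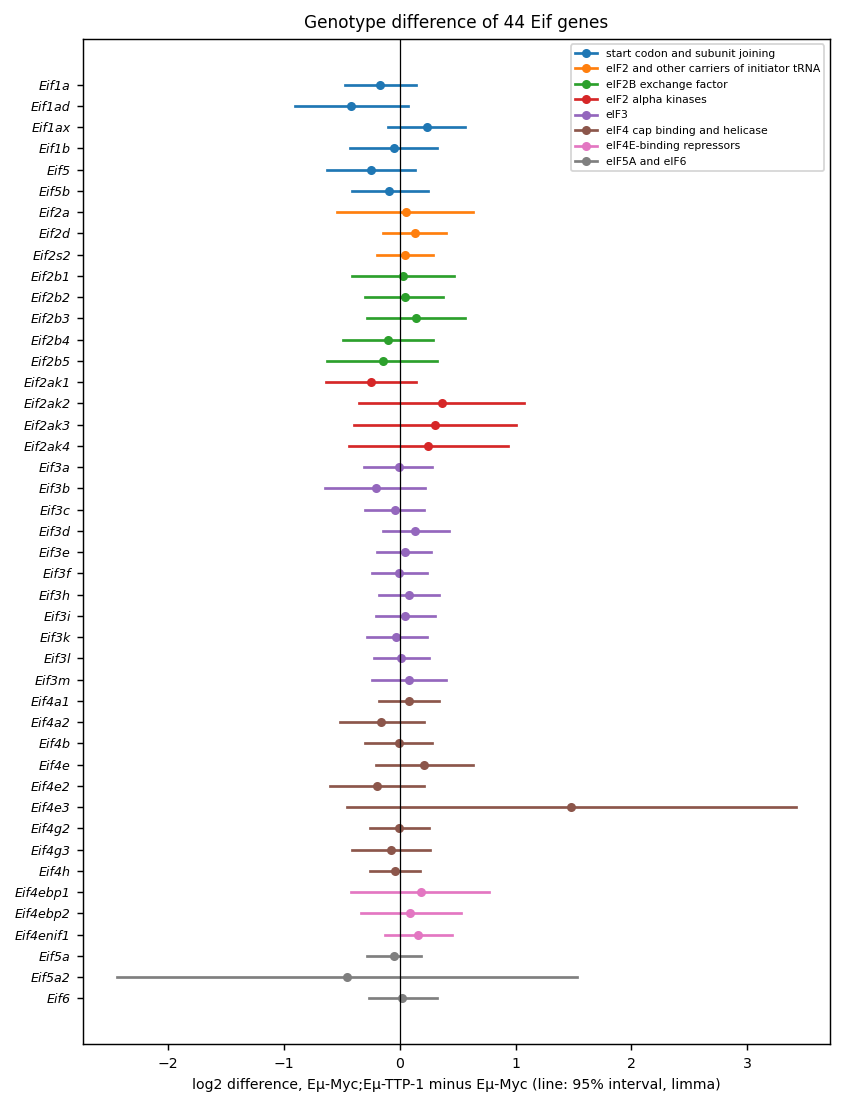
Log2 difference in mRNA level between Eμ-Myc;Eμ-TTP-1 (n = 5) and Eμ-Myc (n = 4) lymphomas for the 44 tested Eif genes, with points for the estimate and lines for the 95% interval from limma, coloured by role. Every interval spans 0, and those of Eif4e3 (-0.46 to 3.42) and Eif5a2 (-2.44 to 1.53) are far wider than the rest.

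Level varied less from tumour to tumour for Eif genes than for most tested genes. The median SD of a member over the 9 arrays was 0.19, with a range of 0.07 to 1.53, where the median over all tested genes was 0.36, and 36 of the 44 members were below that value. Among genes with a mean log2 value over 10, the median SD was 0.18 for 40 members and 0.26 for all 4336 such genes. The eIF3 subunits were the steadiest group, with a median SD of 0.12, and the eIF2 alpha kinases the most variable, with 0.48. Genotype means lay at 11.89 to 14.79 for eIF3 subunits and at 8.34 to 11.79 for the kinases, so their SDs were not compared at a like level. No test was made of these spreads.

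Of 6 genes grouped under start codon recognition and subunit joining, 1 was higher and 5 were lower, with a median difference of -0.13. None passed the test. Eif1ad, which is in the group only as a relative of Eif1a, read 11.32, 10.77, 10.39, 10.88 and 11.25 in Eμ-Myc;Eμ-TTP-1 and 11.28, 11.68, 11.30 and 11.12 in Eμ-Myc. Replicates 2, 3 and 4 of Eμ-Myc;Eμ-TTP-1 were below all Eμ-Myc lymphomas, while replicates 1 and 5 lay among them. Its difference was -0.42 ± 0.21 (SE, 95% interval -0.91 to 0.07, adjusted p = 0.86 by limma). The second probe set of Eif1ad gave 0.11, so the direction depends on the probe set.

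Eif5, the GTPase-activating protein of eIF2, read 13.88, 13.41, 13.39, 13.62 and 13.71 in Eμ-Myc;Eμ-TTP-1 and 13.84, 13.88, 14.17 and 13.51 in Eμ-Myc. The groups overlapped, and the difference was -0.25 ± 0.17 (SE, adjusted p = 0.867 by limma). All 5 of its probe sets were lower in Eμ-Myc;Eμ-TTP-1, by -0.49 to -0.14. Eif1a, one of the genes for the start codon scanning factor eIF1A, read 12.01, 11.72, 11.80, 11.99 and 12.06 in Eμ-Myc;Eμ-TTP-1 and 11.99, 11.98, 12.38 and 11.98 in Eμ-Myc. Its difference of -0.17 ± 0.13 (SE, adjusted p = 0.882 by limma) was -0.07 without Eμ-Myc replicate 3, the highest array.

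Eif1ax, the X-linked gene for eIF1A, went the other way. It read 13.27, 13.01, 13.14, 13.20 and 13.27 in Eμ-Myc;Eμ-TTP-1 and 12.62, 13.05, 12.88 and 13.24 in Eμ-Myc, so that Eμ-Myc replicate 1 was the lowest and replicate 4 lay within the range of Eμ-Myc;Eμ-TTP-1. The difference was 0.23 ± 0.14 (SE, adjusted p = 0.86 by limma). Its other probe sets gave 0.05 and -0.30, and the mean of all 3 gave -0.0053. Eif1b and Eif5b, for a relative of eIF1 and for the subunit-joining GTPase, had differences of -0.05 and -0.09.

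The 3 genes for eIF2 and for other carriers of initiator tRNA were higher by 0.04 to 0.13 in the chosen probe sets, and none passed the test. Eif2s2, the beta subunit of eIF2, had a difference of 0.04, Eif2a 0.05 and Eif2d, which delivers tRNA without GTP, 0.13 (95% interval -0.15 to 0.40). A second probe set of Eif2a, of the class that can also match other genes, gave -0.45, and 3 of the other probe sets of Eif2s2 gave -0.25, -0.23 and -0.22, so the direction depends on the probe set for both genes. Eif2a was the most uneven of these genes over the 9 tumours (SD 0.38). It read 12.33, 11.81, 11.76, 11.87 and 12.35 in Eμ-Myc;Eμ-TTP-1 and 12.55, 11.76, 11.38 and 12.23 in Eμ-Myc. Replicates 1 and 5 of Eμ-Myc;Eμ-TTP-1 and replicates 1 and 4 of Eμ-Myc were the high arrays. Of the 5 subunits of eIF2B, the factor that reloads eIF2 with GTP, 3 were higher and 2 lower, from -0.15 in Eif2b5 to 0.14 in Eif2b3. Eif2b5, the catalytic subunit, read 11.72, 11.24, 11.66, 11.85 and 11.68 in Eμ-Myc;Eμ-TTP-1, and 11.68, 11.78, 11.36 and 12.32 in Eμ-Myc. Its highest array was Eμ-Myc replicate 4, and without it the difference was 0.02.

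The 4 kinases of eIF2 alpha respond to different stresses, and 3 of them were higher and 1 lower, with none past the test. Eif2ak2, which encodes the double-stranded RNA sensor PKR, read 9.24, 8.05, 8.92, 8.17 and 9.13 in Eμ-Myc;Eμ-TTP-1, and 8.0, 8.30, 8.12 and 8.93 in Eμ-Myc. Replicates 1, 3 and 5 of Eμ-Myc;Eμ-TTP-1 and replicate 4 of Eμ-Myc were high and the other 5 tumours low, so each genotype held both kinds. The difference was 0.36 ± 0.31 (SE, 95% interval -0.35 to 1.07, adjusted p = 0.887 by limma), and its other probe sets gave 0.17 and 0.36.

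Eif2ak3, the gene for PERK, the kinase that responds to unfolded protein in the endoplasmic reticulum, read 11.58, 11.21, 12.39, 11.41 and 12.36 in Eμ-Myc;Eμ-TTP-1 and 12.02, 11.13, 11.59 and 11.22 in Eμ-Myc. Replicates 3 and 5 of Eμ-Myc;Eμ-TTP-1 were above all others, and its lowest array, replicate 2, was as low as the lower Eμ-Myc arrays. Eif2ak4, the gene for the amino acid sensor GCN2, read 10.12, 10.37, 10.35, 9.79 and 10.89 in Eμ-Myc;Eμ-TTP-1 and 10.82, 9.52, 10.15 and 9.76 in Eμ-Myc. The highest arrays were Eμ-Myc;Eμ-TTP-1 replicate 5 and Eμ-Myc replicate 1. The differences were 0.30 ± 0.31 for Eif2ak3 (adjusted p = 0.912 by limma) and 0.24 ± 0.30 for Eif2ak4 (adjusted p = 0.93 by limma), with SE.

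Eif2ak1, the gene for the heme-regulated kinase HRI, was the kinase gene on the low side. It read 8.94, 9.25, 9.25, 9.25 and 9.05 in Eμ-Myc;Eμ-TTP-1 and 9.71, 9.56, 8.93 and 9.38 in Eμ-Myc. All 5 arrays of Eμ-Myc;Eμ-TTP-1 lay below 3 of the Eμ-Myc arrays and above the remaining one, replicate 3. The difference was -0.25 ± 0.17 (SE, 95% interval -0.64 to 0.14, adjusted p = 0.867 by limma). Its 4 probe sets gave -0.45 to -0.09. Without Eμ-Myc replicate 3 the difference was -0.40. Eif2ak1 was then the 1 member of 44 with an unadjusted p under 0.05, where 793 of all 10172 tested genes had one.

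**Figure D2:**
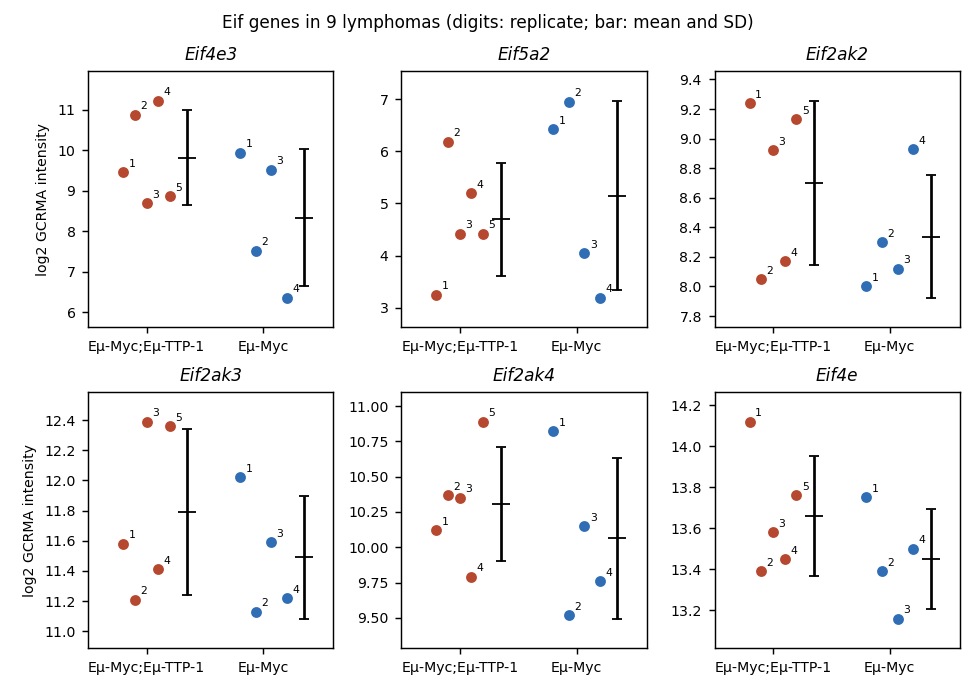
Log2 GCRMA intensity of the 5 Eif genes with the largest SD over the 9 lymphomas, and of Eif4e, in Eμ-Myc;Eμ-TTP-1 (n = 5) and Eμ-Myc (n = 4) lymphomas, with each panel on its own axis; digits give the replicate and bars the mean and SD. In every panel the genotypes overlap, and Eif4e3 runs from 6.36 in Eμ-Myc replicate 4 to 11.22 in Eμ-Myc;Eμ-TTP-1 replicate 4.

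The scaffold complex eIF3 was the steadiest group. Of its 11 tested subunits, 6 were higher and 5 lower, all between -0.21 in Eif3b and 0.13 in Eif3d, and the 95% interval of 10 of them lay within a 1.5-fold change. Eif3b, a core subunit, read 11.98, 11.42, 11.91, 12.21 and 11.91 in Eμ-Myc;Eμ-TTP-1 and 11.94, 12.45, 11.81 and 12.21 in Eμ-Myc. Its lowest array was Eμ-Myc;Eμ-TTP-1 replicate 2, its highest Eμ-Myc replicate 2, and the difference of -0.21 ± 0.19 (SE, adjusted p = 0.892 by limma) did not pass. Eif3d, a subunit that can bind the cap itself, lay between 13.04 and 13.48 in Eμ-Myc;Eμ-TTP-1 and between 12.95 and 13.20 in Eμ-Myc. Eif3f, a further subunit, spanned 14.64 to 14.71 in Eμ-Myc;Eμ-TTP-1 and 14.54 to 14.84 in Eμ-Myc, with a difference of -0.0076.

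Of 9 genes of the cap-binding and helicase group, 3 were higher and 6 lower, with a median difference of -0.0076. Eif4e, the cap-binding subunit, read 14.12, 13.39, 13.58, 13.45 and 13.76 in Eμ-Myc;Eμ-TTP-1 and 13.75, 13.39, 13.16 and 13.50 in Eμ-Myc. Eμ-Myc;Eμ-TTP-1 replicate 1 was above all others, and the remaining 4 of that genotype were at or near the range of Eμ-Myc. The difference was 0.21 ± 0.18 (SE, 95% interval -0.21 to 0.63, adjusted p = 0.892 by limma), and all 3 probe sets were higher, by 0.21 to 0.53. Eif4a1, the helicase, read 14.90, 15.07, 14.96, 14.88 and 14.73 in Eμ-Myc;Eμ-TTP-1 and 14.99, 14.71, 14.74 and 14.88 in Eμ-Myc. These groups overlapped too, with a difference of 0.08 ± 0.12 (SE, adjusted p = 0.944 by limma).

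Eif4e3, a cap-binding relative of eIF4E, was the most variable member. It read 9.45, 10.87, 8.69, 11.22 and 8.86 in Eμ-Myc;Eμ-TTP-1, and 9.94, 7.52, 9.52 and 6.36 in Eμ-Myc. Replicates 2 and 4 of Eμ-Myc;Eμ-TTP-1 were the highest tumours and replicates 2 and 4 of Eμ-Myc the lowest, while the other 5 tumours of both genotypes lay together between 8.69 and 9.94. The mean was 9.82 ± 1.16 in Eμ-Myc;Eμ-TTP-1 (SD, n = 5) and 8.33 ± 1.69 in Eμ-Myc (SD, n = 4). The difference of 1.48 ± 0.85 (SE, 95% interval -0.46 to 3.42, adjusted p = 0.86 by limma) had a fold interval of 0.728 to 10.7. The second probe set gave 1.45. Without Eμ-Myc replicate 4 the difference was 0.82.

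Eif4e2, a cap-binding relative that represses translation, had a difference of -0.20 (95% interval -0.60 to 0.21). The helicase gene Eif4a2 read 13.88, 13.94, 14.02, 14.02 and 14.19 in Eμ-Myc;Eμ-TTP-1 and 14.17, 14.15, 13.78 and 14.56 in Eμ-Myc, with Eμ-Myc replicate 4 the highest. Its difference was -0.16 (95% interval -0.52 to 0.21). The remaining genes, Eif4b, Eif4g2, Eif4g3 and Eif4h, lay between -0.08 and -0.0075.

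The 3 genes for proteins that bind and restrain eIF4E were all higher, by 0.09 to 0.18, and none passed the test. Eif4ebp1, the binding protein best known as a target of mTORC1, read 11.14, 11.60, 11.20, 11.42 and 11.24 in Eμ-Myc;Eμ-TTP-1 and 10.45, 11.25, 11.01 and 11.86 in Eμ-Myc. The Eμ-Myc lymphomas held both its lowest array, replicate 1, and its highest, replicate 4. The difference was 0.18 ± 0.26 (SE, adjusted p = 0.945 by limma), and without Eμ-Myc replicate 1 it was -0.06. Its probe set is of a class that can also bind related transcripts, and the other one that passed the limit gave 0.26. Eif4ebp2, a related binding protein, read 13.02, 12.11, 12.72, 12.70 and 12.61 in Eμ-Myc;Eμ-TTP-1 and 12.38, 12.58, 12.82 and 12.38 in Eμ-Myc, with a difference of 0.09. Without Eμ-Myc;Eμ-TTP-1 replicate 1, its highest array, the difference was -0.0019. Eif4enif1, which encodes the protein that carries eIF4E into the nucleus, read 11.94, 11.90, 12.13, 11.90 and 11.79 in Eμ-Myc;Eμ-TTP-1 and 11.82, 11.89, 11.50 and 11.89 in Eμ-Myc. Here 4 of 5 arrays of Eμ-Myc;Eμ-TTP-1 were above all of Eμ-Myc, and the difference was 0.16 ± 0.13 (SE, adjusted p = 0.88 by limma).

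Eif5a, which encodes the hypusine-carrying factor that helps ribosomes through difficult peptide bonds, was nearly level: 16.05, 15.99, 16.06, 16.07 and 16.06 in Eμ-Myc;Eμ-TTP-1 and 16.03, 16.26, 15.95 and 16.15 in Eμ-Myc. The difference was -0.05 ± 0.10 (SE, 95% interval -0.28 to 0.18, adjusted p = 0.968 by limma). Its paralogue Eif5a2 read 3.25, 6.18, 4.42, 5.20 and 4.42 in Eμ-Myc;Eμ-TTP-1 and 6.42, 6.95, 4.04 and 3.19 in Eμ-Myc. High and low tumours occurred in both genotypes, and the values lie near the array's background, where GCRMA folds are poorly determined. The difference of -0.46 ± 0.87 (SE, adjusted p = 0.963 by limma) was 0.14 without Eμ-Myc replicate 2. Eif6, which keeps the ribosomal subunits apart, lay between 11.91 and 12.38 in Eμ-Myc;Eμ-TTP-1 and between 12.02 and 12.26 in Eμ-Myc, with a difference of 0.02 ± 0.13 (SE, adjusted p = 0.99 by limma). That direction is not settled, since quantile normalization gave -0.0084.

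The choice of probe set mattered to direction. The members had 128 probe sets, 108 of them over the limit on low values, and 30 genes had more than one such probe set. In 13 of the 30 genes all of them had the same sign, Eif5, Eif4e, Eif4e3, Eif2ak1, Eif2ak2 and Eif4ebp1 among these, and in the other 17 the signs were mixed. Of the chosen probe sets, 4 were of the class (_x_at) in which some probes can match other genes, those of Eif2b2, Eif3e, Eif4h and Eif4ebp1. Another 3, those of Eif3m, Eif4g2 and Eif5a, were of the class (_s_at) whose probes are shared by several transcripts.

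Single tumours stood apart across the family. In Eμ-Myc;Eμ-TTP-1 replicate 2, 33 of the 44 members lay below their own median over the 9 arrays (75.0%), where 43.7% of all tested genes did. In Eμ-Myc replicate 3, 30 of the 44 did so (68.2%), against 51.3% of all tested genes. In the remaining arrays the share was 22.7% to 47.7%. It was 22.7% in Eμ-Myc;Eμ-TTP-1 replicate 1 and 31.8% in Eμ-Myc replicate 1, against 41.1% and 51.7% of all tested genes. Both gaps were wider than that of Eμ-Myc replicate 3, in the other direction. The share was also under that of all tested genes in Eμ-Myc;Eμ-TTP-1 replicates 4 and 5 and Eμ-Myc replicate 2. It was over it in Eμ-Myc;Eμ-TTP-1 replicate 3 and Eμ-Myc replicate 4. The low members in Eμ-Myc;Eμ-TTP-1 replicate 2 included all 6 genes of the start codon and joining group (median deviation -0.28), 4 of the 5 eIF2B subunits (-0.43) and 9 of the 11 eIF3 subunits (-0.08). In Eμ-Myc replicate 3 they included 4 of 5 eIF2B subunits (-0.28) and 8 of 11 eIF3 subunits (-0.06). Eμ-Myc;Eμ-TTP-1 replicate 1 had the opposite pattern, with all 6 genes of the start codon and joining group (0.13) and all 5 eIF2B subunits (0.21) above their medians. The pan-B mean was 11.05 in Eμ-Myc;Eμ-TTP-1 replicate 2, against 12.21 to 12.62 in the others of its genotype, and 11.86 in Eμ-Myc replicate 3, against 12.15 to 12.44. Of the 7 genes, 2 carried the low mean of Eμ-Myc;Eμ-TTP-1 replicate 2, Cd22 at 6.99 and Cd72 at 7.5. Blnk (12.95) and Pax5 (8.49) were also the lowest of that genotype, where its other arrays held 13.10 to 13.60 and 8.66. Ebf1 (12.08) lay within the range of its genotype. Cd79a (14.04) was the highest of its genotype and Cd79b (15.30) the highest of all 9 arrays. The granulocyte mean of Eμ-Myc;Eμ-TTP-1 replicate 2 was 9.69, above the 3.82 to 5.66 of the others of its genotype. That of Eμ-Myc replicate 3 was 9.51, beside 9.01 in replicate 2 and 8.17 in replicate 4, in which 38.6% and 47.7% of the members were below their medians. The part of granulocytes or other cells in the lower Eif values was not tested. Without Eμ-Myc;Eμ-TTP-1 replicate 2, 26 of the 44 members were higher in Eμ-Myc;Eμ-TTP-1, and without Eμ-Myc replicate 3, 22.

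**Figure D3:**
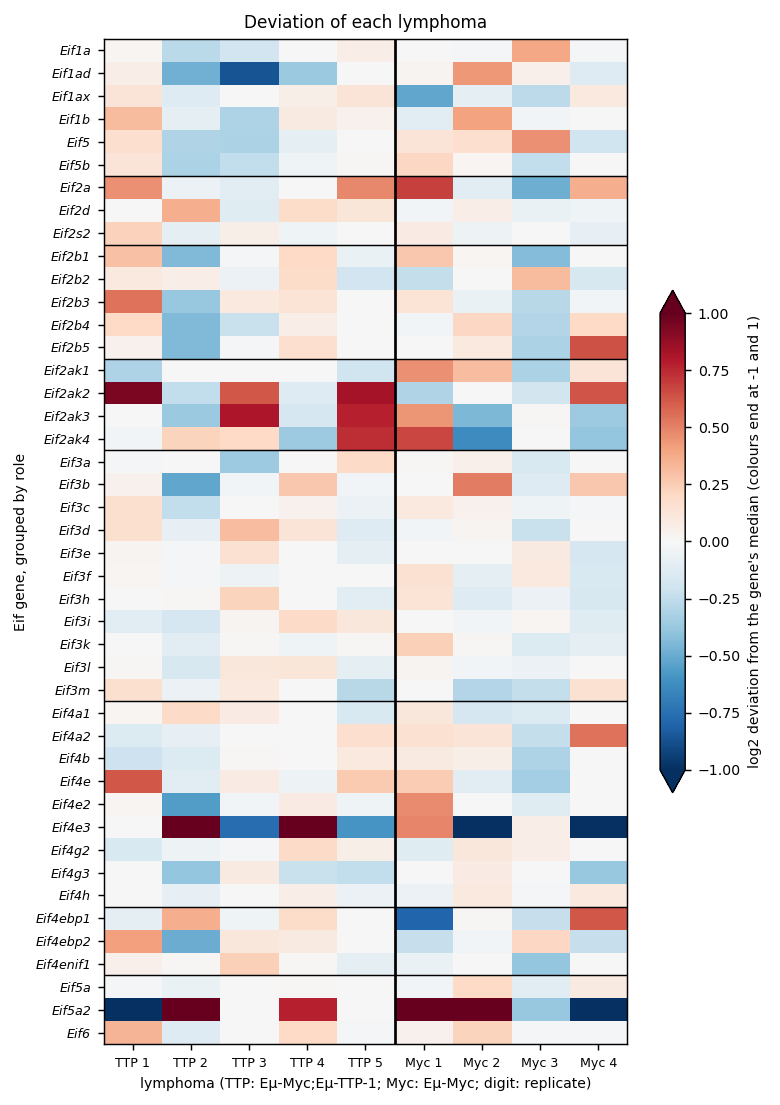
Log2 deviation of each lymphoma from the gene's median over the 9 arrays, for the 44 tested Eif genes grouped by role, with the 5 Eμ-Myc;Eμ-TTP-1 lymphomas left of the line and the 4 Eμ-Myc lymphomas right of it. The columns of Eμ-Myc;Eμ-TTP-1 replicate 2 and Eμ-Myc replicate 3 are mostly blue, with 33 and 30 genes below their medians, and the eIF3 rows are the palest of the larger groups.

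Some single-tumour values of Eif genes were shared with the genes beside them on the chromosome, and others were not. The widest deviations were those of Eif4e3 and Eif5a2: Eif4e3 deviated by -3.09 in Eμ-Myc replicate 4 and by 1.76 in Eμ-Myc;Eμ-TTP-1 replicate 4, with its neighbours at 0.00 in both. Eif2ak2 deviated by 0.94 in Eμ-Myc;Eμ-TTP-1 replicate 1 with neighbours at 0.00, and by 0.83 in replicate 5 with neighbours at 0.32. Over the tested non-members of a chromosome, the median deviation of an array reached 0.15 in either direction in 13 pairs of chromosome and array. Among these were chromosome 16 in Eμ-Myc replicate 4 (0.50), chromosome 19 in Eμ-Myc;Eμ-TTP-1 replicates 3 (-0.46) and 5 (0.34), and chromosome 12 in Eμ-Myc replicate 3 (0.34). Chromosome 3 was among them in Eμ-Myc;Eμ-TTP-1 replicates 1 (0.25) and 5 (0.26) and Eμ-Myc replicate 1 (0.25). Neighbours are here up to 20 tested genes on either side of a gene, with Eif members among them left out. In Eμ-Myc replicate 4, Eif2b5 deviated by 0.65 and its neighbours by 0.48, and Eif4a2, on the same chromosome, by 0.54 with its neighbours at 0.47. In Eμ-Myc;Eμ-TTP-1 replicate 3, Eif1ad deviated by -0.86 and its neighbours by -0.50, while in replicate 5 its neighbours stood at 0.42 and Eif1ad at 0.00. In Eμ-Myc replicate 3, Eif5 and Eif2b2, both on chromosome 12, deviated by 0.46 and 0.32 with neighbours at 0.25 and 0.37, and Eif1a by 0.39 with neighbours at 0.42.

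Eif4e and Eif2a both lie on chromosome 3. The 3 highest arrays of Eif4e were Eμ-Myc;Eμ-TTP-1 replicates 1 and 5 and Eμ-Myc replicate 1, with deviations of 0.61, 0.26 and 0.25. Its neighbours stood at 0.23, 0.25 and 0.22 in these arrays. With each array centred by chromosome, the genotype difference of Eif4e was 0.10, against 0.21 without it, and that of Eif2b5 was -0.05, against -0.15. Eif2a deviated by 0.48 in Eμ-Myc;Eμ-TTP-1 replicate 5, by 0.68 in Eμ-Myc replicate 1 and by -0.48 in Eμ-Myc replicate 3, with neighbours at 0.28, 0.27 and -0.26. Eif5a2, on the same chromosome, deviated in the direction of its neighbours in 2 of the 5 arrays in which these were shifted. It deviated by -1.16 and 0.00 in Eμ-Myc;Eμ-TTP-1 replicates 1 and 5, with neighbours at 0.30 and 0.40. In Eμ-Myc replicates 1, 2 and 3 it deviated by 2.00, 2.53 and -0.38, with neighbours at 0.30, -0.28 and -0.19. On chromosome 15, Eif3d, Eif3e, Eif3h and Eif3l deviated by 0.31, 0.16, 0.22 and 0.11 in Eμ-Myc;Eμ-TTP-1 replicate 3, with neighbours at 0.17, 0.27, 0.27 and 0.16, and Eif4b by 0.01 with neighbours at 0.22.

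Over the family, neighbours were shifted by at least 0.15 in 41 of 396 pairs of gene and array, from 20 members on 11 chromosomes, and the member deviated in the same direction in 31 of the 41 (75.6%). Over all other tested genes the share was 67.6% of 8843 pairs. Pairs that share a chromosome and a tumour are not independent, so no test was made. A further alternative, chosen after seeing the data, centred each array on the median deviation of a gene's neighbours. With it 15 of the 44 members were higher in Eμ-Myc;Eμ-TTP-1 (34.1%), where 53.6% of all tested genes were. Of the members 0 passed the adjusted threshold, where 0 of all 10172 tested genes did. Eif1ad then had an unadjusted p under 0.05, with a difference of -0.47 and an adjusted p of 0.861 by limma. It was the 1 member of 44 with such a p, where 582 of all 10172 tested genes had one.

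**Figure D4:**
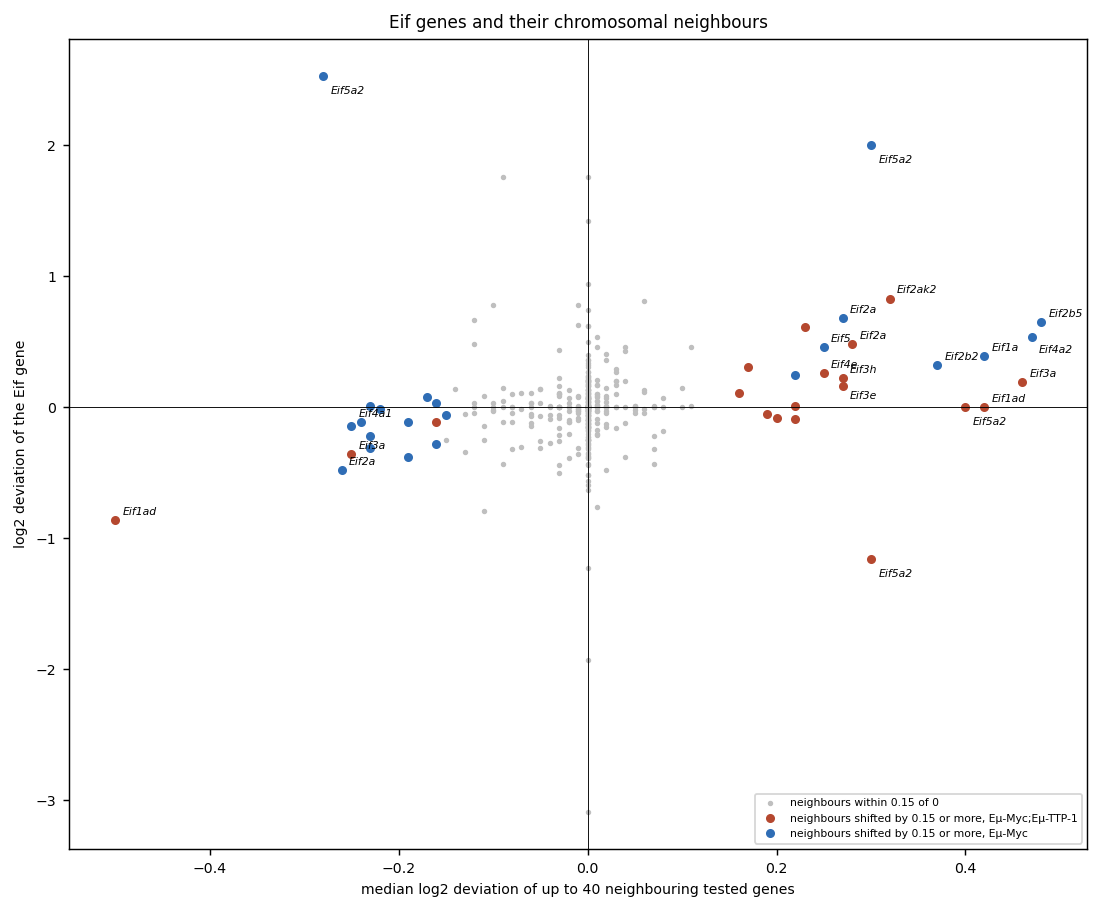
Log2 deviation of each Eif gene from its own median in each lymphoma, against the median deviation of up to 40 neighbouring tested genes on the same chromosome in that lymphoma, with coloured points where the neighbours deviate by 0.15 or more (red, Eμ-Myc;Eμ-TTP-1; blue, Eμ-Myc) and names where they deviate by 0.25 or more. Of the 41 coloured points, 31 lie on the same side of 0 on both axes, and Eif2b5 in Eμ-Myc replicate 4 (0.65 against 0.48) and Eif1ad in Eμ-Myc;Eμ-TTP-1 replicate 3 (-0.86 against -0.50) are at the ends.

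Lists for other parts of the translation machinery were described by the same fit, and no gene of them passed the adjusted threshold. Of 8 elongation factor genes tested, 5 were higher and 3 lower, from -0.15 in Eef1e1 to 0.39 in Eef2k, the gene for the kinase of eEF2. Of 6 genes for termination and recycling, 1 was higher and 5 lower, from -0.21 in Etf1, the release factor, to 0.12 in Denr. Of 6 genes for poly(A)-binding proteins and their partners, 5 were higher and 1 lower, from -0.14 in Pabpn1 to 0.49 in Paip2b. Of 13 other regulators of initiation, 7 were higher and 6 lower, from -0.20 in Ppp1r15a, a regulator of eIF2 alpha dephosphorylation, to 0.16 in Dhps, the enzyme that begins hypusine synthesis on eIF5A. Of 8 genes for mitochondrial translation factors, 6 were higher and 2 lower, from -0.04 in Tufm to 0.20 in Mtif3. No gene of these lists had an adjusted or an unadjusted p under 0.05 by limma.

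Among 9 genes of mTORC1 and its regulators, the pathway that releases eIF4E from its binding proteins, 4 were higher and 5 lower, and 2 of the 9 had an unadjusted p under 0.05, where 5.67% of all tested genes did. These were Rptor, the gene for the scaffold raptor (0.79 ± 0.25, SE), and Tsc2, a gene for an inhibitor of the pathway (0.70 ± 0.26, SE), and both had an adjusted p of 0.845 by limma. The kinase gene Mtor itself gave -0.45 ± 0.48 (SE). Genes of S phase and mitosis were higher in 13 of 13 cases, where 58.9% of all tested genes were, with a median of 0.35 against 0.05 over all tested genes. Of the 13, 0 passed the adjusted threshold and 1 had an unadjusted p under 0.05, the replication gene Gins2 (1.07 ± 0.33, SE, adjusted p = 0.845 by limma). Their mean log2 value was 13.04 to 13.16 in Eμ-Myc;Eμ-TTP-1 and 12.08 to 13.09 in Eμ-Myc. The lowest was Eμ-Myc replicate 1, at 12.08, with the others of its genotype at 12.71 to 13.09. Genes of this list are not independent of one another, and the count of 13 was not repeated without that array. Of the Eif genes, 23 of 44 were higher. Myc read 14.14, 13.78, 14.03, 14.15 and 14.01 in Eμ-Myc;Eμ-TTP-1 and 14.21, 14.02, 13.60 and 13.84 in Eμ-Myc. Its lowest array in each genotype, replicate 2 of Eμ-Myc;Eμ-TTP-1 and replicate 3 of Eμ-Myc, was also the array of that genotype with the most Eif genes below their medians. Whether these values are linked was not tested.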

How the data were processed

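The authors deposited intensity values of 45037 probe sets per array on a linear scale from 1.56 to 123104.7, made with GCRMA per the submitters' processing notes (version not given in the sources used here). GCRMA adjusts for background from probe sequence and applies quantile normalization, so weak probe sets keep low values that still vary in log2. Scanner files, scan dates and detection calls were not analysed here. Values were taken as log2 with no pseudocount. The platform annotation paired 34945 probe sets with 1 gene, 932 with several and 9160 with none listed, and 34741 of the single-gene ones matched RefSeq (GRCm38.p6), used for chromosome order. For each gene the brightest probe set on average was used, and genes over 4 on the log2 scale (intensity 16) in at least 4 arrays were tested.

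The genotype test was limma's moderated linear model (limma 3.58.1, R 4.3.3), two-sided and without covariates, with Benjamini-Hochberg adjustment over 10172 genes and a threshold of 0.05. The script was tested on simulated data. Python 3.11.15 was used for descriptions. The members, roles, gene lists and tests were chosen with earlier results of these data known. Named genes were the 5 members of smallest p in each direction, the 5 of largest SD, a fixed list of central factors, and both ends of each role. Genes at the ends of other lists, up to 2 a side, were named too. Other members are named for values shared with neighbours, which was decided after their values were seen. Alternatives covered the filter, probe set choice, normalization, centring (by array, chromosome or neighbours), array weights, the eBayes prior, adding 16 before log2, the replicate number as a block, and each array left out. A planned comparison of protein sequences was not made.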

Additional observations from a re-analysis of the deposited data

Results flagged for a closer look

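Of 88 sets of values (44 Eif genes in each of 2 genotypes), 4 had 1 tumour far from the others by Dixon's criterion at the 95% level, where chance gives about 1 in 20, or 4.4. In Eμ-Myc;Eμ-TTP-1, replicate 2 was low for Eif4e2, at 11.08 with the other 4 arrays at 11.60 to 11.72, and for Eif5a, at 15.99 with the others at 16.05 to 16.07. In Eμ-Myc, replicate 3 was high for Eif1a, at 12.38 with the others at 11.98 to 11.99, and replicate 4 was low for Eif4g3, at 11.77 with the others at 12.15 to 12.23.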

How the results depend on the processing

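No Eif gene passed the adjusted threshold under any of the 21 alternatives, and the lowest adjusted p of a named gene among them was 0.584 by limma. Leaving out each array in turn gave 0 to 8 genes past the threshold over the whole array, with 8 without Eμ-Myc replicate 3, 1 without Eμ-Myc replicate 4 and 0 otherwise. The members higher in Eμ-Myc;Eμ-TTP-1 numbered 15 under median centring and 15 with neighbour centring, against 23 as reported, and 18 to 28 with arrays left out. Of all tested genes, 45.8% were higher under median centring, 53.6% with neighbour centring and 56.2% to 61.2% with arrays left out. The members' median difference ran from -0.06 to 0.05. The members at an unadjusted p under 0.05 numbered 1 under array weights (Eif4e3), 1 under chromosome centring (Eif1ad) and 1 with neighbour centring (Eif1ad). Of all 10172 tested genes, 754, 584 and 582 had such a p in these settings. With arrays left out, 0 to 1 members did, where 458 to 793 of all tested genes did. They were Eif4e3, Eif2ak1 and Eif1ax without Eμ-Myc replicates 1, 3 and 4, and Eif1ad without Eμ-Myc;Eμ-TTP-1 replicate 1. Of 24 genes followed through the alternatives, 14 never changed sign. The mean of probe sets turned Eif1ax (-0.0053) and Eif2s2 (-0.10). Median centring turned Eif2s2 (-0.03) and Eif6 (-0.05), neighbour centring Eif2s2 (-0.05), Eif3d (-0.04), Eif4a1 (-0.0022) and Eif6 (-0.0064), chromosome centring Eif6 (-0.00081), quantile normalization Eif6 (-0.0084), and array weights Eif4ebp1 (-0.05). With arrays left out, sign changed within -0.30 to 0.02 for Eif2b5, -0.0051 to 0.08 for Eif2s2, -0.06 to 0.41 for Eif4ebp1, -0.0019 to 0.22 for Eif4ebp2, -0.10 to 0.0047 for Eif5a, -1.11 to 0.14 for Eif5a2 and -0.04 to 0.08 for Eif6. The cause of these changes was not tested. Leaving out Eμ-Myc replicate 1, 3 or 4 leaves 3 arrays in that genotype.

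Deviations of same-numbered arrays correlated at -0.09, 0.09, 0 and 0.2 over 10172 genes, and 2 of 4 correlated best with their own number. So few correlations cannot settle whether replicate numbers pair the tumours. With the replicate number as a block, 0 genes passed, 22 members were higher and their median was 0.0057. Signal over background limits Eif5a2, Eif4a3 and other genes near the limit of 4.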
